A study of Mus musculus with 18 samples.

Results

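Autophagy genes encode the proteins by which a cell wraps part of its own contents in a double membrane and delivers it to the lysosome. The 37 genes described here were chosen by symbol, for known roles in autophagy and not for their values, among the 21761 genes of an RNA-seq table. Earlier results of these data were known when the genes were chosen. All 37 were in the table and all 37 passed the filter for testing. The table covered 3 cell types of the mouse B lineage, sorted at 5000 cells per sample, in 18 libraries. Naive B cells of the lymph node (nB) were B220+ Fas- GL7- cells from mice that had not been immunized. Germinal center B cells (GCB) are the dividing cells in which antibody genes are mutated and selected. They were B220+ Fas+ GL7+ cells that also bound the antigen phycoerythrin (PE+). These cells came from mice 30 days after immunization with phycoerythrin in complete Freund's adjuvant. Bone marrow plasma cells (BMPC), the cells that secrete antibody, were CD138+ cells taken from immunized mice at the same time.

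Each cell type had 3 Dnmt3-sufficient and 3 Dnmt3-deficient libraries. Every mouse, controls included, carried floxed alleles of both Dnmt3a and Dnmt3b (fl/fl), which encode the enzymes that methylate DNA at new sites, on a mixed B6;129S4 background. Dnmt3-deficient mice also carried a Cre recombinase that is active in B lineage cells from the pro-B stage, and Dnmt3-sufficient mice did not. The animals were 8 to 12 weeks old at the outset, and both sexes were used. Most nB and GCB libraries were female and most BMPC libraries male, so sex was not balanced between the cell types. A GCB sample held the cells of more than 1 mouse. FPKM scales the reads of a gene by the length of its exons and by the total over the listed genes, and immunoglobulin genes other than Jchain and Igll1 are not part of that total.

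Autophagy begins when the ULK1 kinase complex and then the class III PI3-kinase complex act on a small patch of membrane. Conjugation enzymes then attach the ATG8 proteins (the LC3 and GABARAP families) to the growing membrane, where they bind cargo receptors such as p62, and the closed vesicle fuses with a lysosome. Plasma cells make antibody at a high rate, and autophagy is known to limit the size of their endoplasmic reticulum and to be needed for their long life. TFEB and TFE3 are transcription factors that bind CACGTG motifs in promoters of autophagy and lysosome genes.

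In BMPC, Map1lc3b, Wipi1 and Lamp2 were higher than in both nB and GCB, whereas the larger number of genes that differed were lower there. Against nB 3 of the 37 rose and 14 fell, beside 9.43% and 39.3% of all tested genes. Against GCB 3 rose and 10 fell, beside 7.72% and 33.7%. Tfeb was listed at 0 in all 6 BMPC libraries. From nB to GCB, Optn rose and 3 of the 37 fell, beside 9.47% of all tested genes that rose and 12.0% that fell. Between genotypes, no gene of the 37 passed in nB or GCB. In BMPC 3 rose and 1 fell, beside 1.34% and 2.65% of all tested genes, in a comparison that depended on the fit.

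Promoters of the 3 genes that were higher in BMPC are printed beside those of the 2 genes with the most CACGTG motifs, so that the sequences can be read against the values that follow. Each is the 120 bases before the transcription start, read 5′ to 3′ on the strand of the gene, from RefSeq on GRCm38.p6, with CACGTG in capitals.
Map1lc3b, chr8:121590318-121590437, plus strand: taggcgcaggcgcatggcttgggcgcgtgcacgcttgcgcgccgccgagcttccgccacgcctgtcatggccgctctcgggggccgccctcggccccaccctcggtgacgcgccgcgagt
Wipi1, chr11:109611390-109611509, minus strand: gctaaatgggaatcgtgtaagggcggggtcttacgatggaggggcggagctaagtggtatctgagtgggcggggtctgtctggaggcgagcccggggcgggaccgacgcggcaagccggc
Lamp2, chrX:38456461-38456580, minus strand: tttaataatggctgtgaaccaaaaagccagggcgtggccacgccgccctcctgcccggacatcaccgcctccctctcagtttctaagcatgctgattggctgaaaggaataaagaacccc
Atg3, chr16:45158709-45158828, plus strand: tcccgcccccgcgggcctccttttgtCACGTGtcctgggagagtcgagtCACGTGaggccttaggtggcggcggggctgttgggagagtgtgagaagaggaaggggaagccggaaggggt
Lamp1, chr8:13159041-13159160, plus strand: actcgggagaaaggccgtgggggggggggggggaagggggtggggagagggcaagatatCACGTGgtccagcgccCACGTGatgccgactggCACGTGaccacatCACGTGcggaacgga

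The RefSeq promoters ran from 250 bases before to 50 after the start and matched 31 of the 37 genes. CACGTG, which reads the same on both strands, was in the promoters of Atg3, Atg5, Atg7, Atg14 and Lamp1, 5 of those 31 genes. Some genes had more than 1 promoter. By promoter the motif was in 5 of the 37 that belonged to the 31 genes, beside 7.15% of all 32851 promoters. Lamp1 held 4 copies, which began 61, 45, 28 and 15 bases before the start. Atg3 held 2 copies, 94 and 71 bases before it, of which the second lies within TCACGTGA, a motif in 0.974% of all promoters. TGACGTGG, the motif of the unfolded protein response factors XBP1 and ATF6, was searched on both strands and occurred in none of the 31 and in 0.676% of all promoters. None of these motifs was found in the windows of Map1lc3b, Wipi1 and Lamp2, which says nothing about the factors themselves.

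The levels of the 37 genes spanned a wide range, and 3 genes of the ATG8 family stood at the top in every cell type. Median levels over 6 libraries were 302 FPKM in nB, 252 in GCB and 763 in BMPC for Map1lc3b, 247, 211 and 246 for Gabarap, and 157, 158 and 284 for Gabarapl2. These were the only 3 of the 37 with a median above 100 FPKM in any cell type. In nB, Map1lc3b lay above 98.1% of all tested genes. The other 2 members of the family were low, with medians of 1.37, 1.13 and 0 FPKM in nB, GCB and BMPC for Map1lc3a and 2.22, 1.15 and 2.45 for Gabarapl1. The family made up 52.9% to 61.0% of the summed FPKM of the 37 genes in nB libraries and 50.3% to 57.1% in GCB libraries. In BMPC libraries its share was higher, at 69.5% to 78.0%. The median gene of the 37 stood at 13.0 FPKM in nB, 10.5 in GCB and 4.82 in BMPC, beside 8.36, 6.81 and 2.79 for all tested genes.

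**Figure D1:**
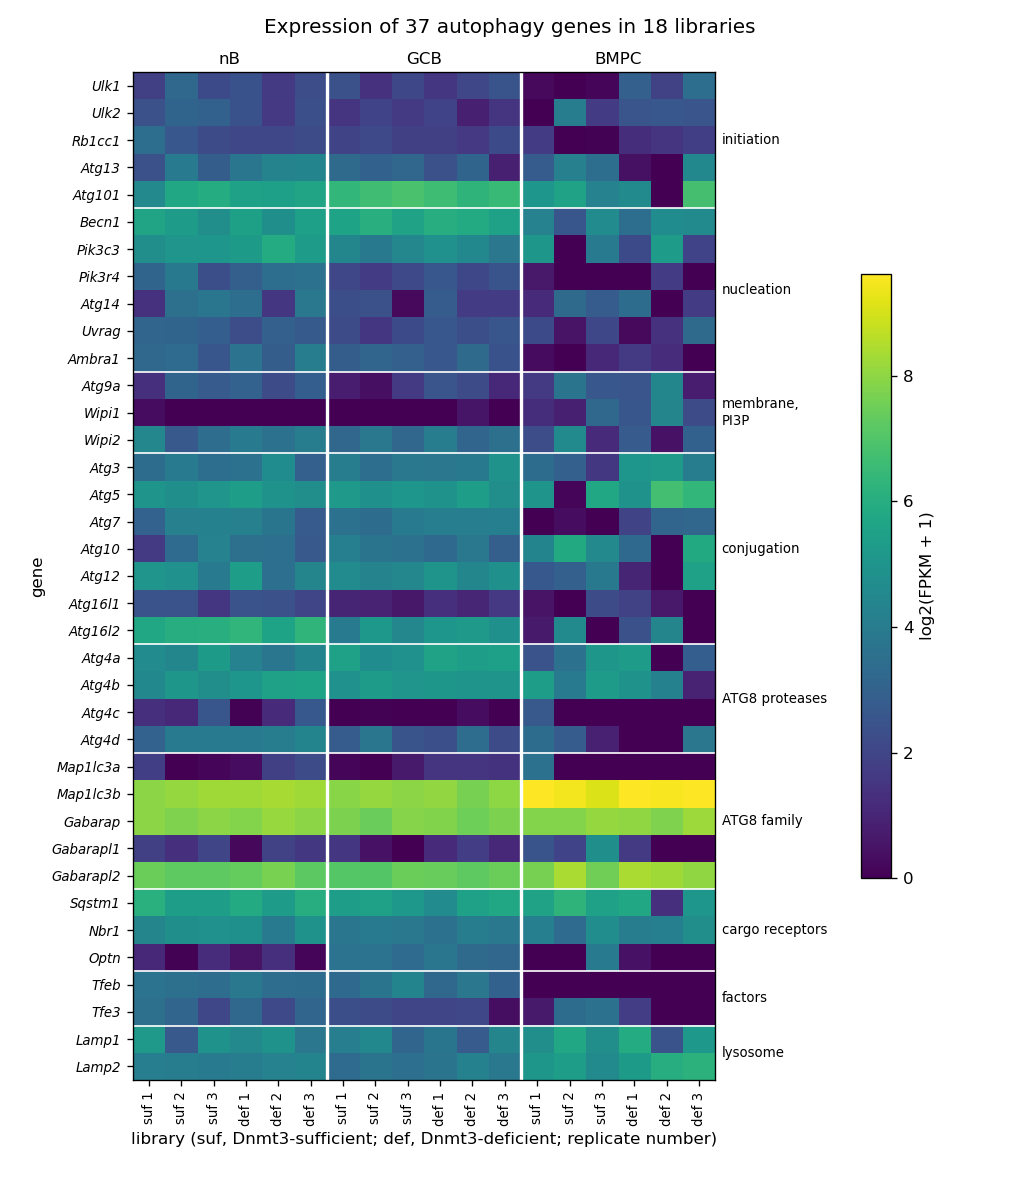
Level of each of the 37 autophagy genes (rows, grouped by role) in each of the 18 libraries (columns, grouped by cell type), as log2(FPKM + 1) in colour. The bright rows of Map1lc3b, Gabarap and Gabarapl2 run through all libraries, Tfeb is dark in all 6 BMPC libraries, and many other rows change from library to library within BMPC.

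The depth differed between cell types, and this bears on every BMPC value below. Reads on genes numbered 6692516 to 8987922 in nB libraries, with GCB at 7644544 to 8903872 and BMPC at 1355231 to 3803197. Of the 37 genes, 0 to 4 were at 3 reads or fewer in an nB library, 0 to 3 in a GCB library and 7 to 14 in a BMPC library, where 32.9% to 47.9% of all tested genes were at 3 or fewer. Within a group of 3 BMPC libraries the median SD of the 37 genes was 0.96 on the log2(FPKM + 1) scale in both genotypes, beside 0.24 to 0.45 in the nB and GCB groups. The BMPC libraries carried markers of plasma cells, with Sdc1 at 34.5 to 108 FPKM, Xbp1 at 560 to 835 and Tnfrsf17 at 173 to 523. Jchain was at 16190 to 46610 FPKM and Mzb1 at 1908 to 3391. Prdm1 ran from 0.84 to 45.2 FPKM in BMPC. Irf4 ran from 0.32 to 55.3 and overlapped with nB, at 17.2 to 31.0. The 7 GCB markers summed to 18.5 to 83.5 FPKM in BMPC, with 4 of the 7 above 0, beside 1049 to 1161 in GCB and 25.8 to 73.6 in nB. The BMPC libraries also carried genes of other marrow cells. The 9 neutrophil markers summed to 21.3 to 608 FPKM, the 6 macrophage markers to 0.048 to 82.5, the 5 T cell markers to 53.5 to 198, the 5 early B markers to 308 to 627 and 5 erythroid markers to 160 to 2229. In nB the same sums were 0, 0.403 to 13.1, 25.4 to 71.4, 1.58 to 22.5 and 0.468 to 218 in that order, so those of macrophages, T cells and erythroid cells overlapped with BMPC. Not every marker of a list followed its sum. Cd4 and Cd8a were at most 0.11 and 0.50 FPKM in BMPC, beside 9.47 and 10.3 in nB, and C1qa was at 0 in BMPC. The early B sums in BMPC were mostly Dntt, at 305 to 581 FPKM. The part of other marrow cells in the BMPC results was not tested, and fewer cells of a type and less RNA per cell cannot be told apart in such samples. Dnmt3a overlapped between the genotypes in every cell type (at 2.35 to 5.18 FPKM in Dnmt3-sufficient and 2.24 to 4.34 in Dnmt3-deficient nB), and Dnmt3b was higher in Dnmt3-deficient GCB, at 0.74 to 1.10 beside 0 to 0.68, but a value over all exons holds exons outside the deleted part and so does not check the labels.

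The first comparison asked how the genes change from nB to BMPC. To pass, a gene needed a change of 1 or more on the log2(FPKM + 1) scale and a limma p, adjusted by Benjamini-Hochberg over 11522 genes, of at most 0.05. Of the 37 genes, 3 rose and 14 fell, beside 9.43% of all tested genes that rose and 39.3% that fell. The 14 are 37.8% of the 37, near the share of all genes. The median change was -0.97 for the 37 genes and -0.79 for all tested genes. BMPC against GCB uses the same BMPC libraries, and there 3 of the 37 rose and 10 fell, beside 7.72% and 33.7% of all tested genes. The median change in that comparison was -0.30 for the 37 genes and -0.66 for all tested genes. With median of ratios scaling the median of all genes was higher by 0.11 in BMPC against nB and by 0.15 in BMPC against GCB. Non-overlap of all 6 with all 6 libraries held for 3 of the 37 genes that rose and 6 that fell against nB (5.15% and 18% of all tested genes), and for 3 and 4 against GCB (4.22% and 16.7%).

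**Figure D2:**
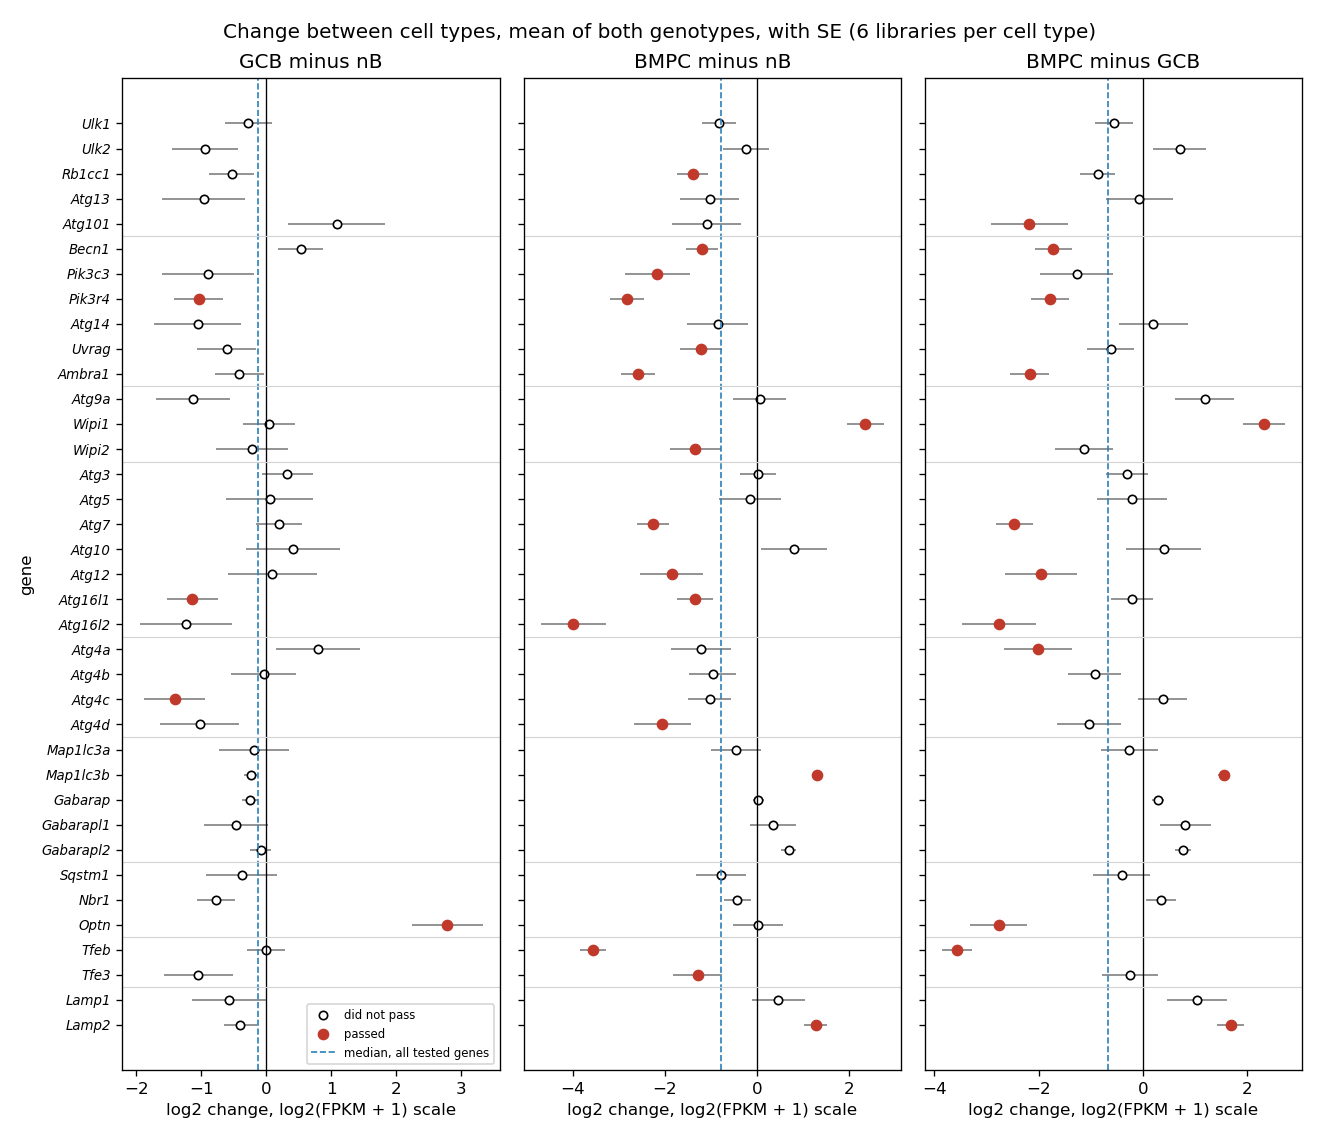
Change of each gene between cell types, as the difference of means of 6 libraries per cell type on the log2(FPKM + 1) scale, in rows grouped by role. Bars give the SE, from a spread estimated over all 18 libraries. Filled points passed, open points did not, and the dashed line is the median of all tested genes. Wipi1, Map1lc3b and Lamp2 lie to the right in both BMPC panels, and Tfeb and Atg16l2 lie farthest to the left in the panel of BMPC minus nB.

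Of the 5 genes of the ULK1 complex, which starts the process, 1 fell from nB to BMPC and none rose, beside 39.3% and 9.43% of all tested genes. Rb1cc1, the scaffold FIP200 of that complex, ran from 3.15 to 10.3 FPKM in nB with a median of 3.67, and from 0 to 2.47 in BMPC with a median of 1.596. The ranges did not overlap, and the change was -1.40 ± 0.34 (SE, adjusted p = 0.00254). In the Dnmt3-deficient libraries alone it no longer passed, with a change of -0.60 (adjusted p = 0.201). Atg101, which stabilises ATG13 in the complex, was the highest of the 5 in nB and GCB and fell only against GCB, from 93.3 ± 14.4 FPKM (SD, n = 6) to 38.0 ± 37.8 (adjusted p = 0.0242). This call was lost without Dnmt3-sufficient BMPC replicate 3 (adjusted p = 0.0509), with a pseudocount of 0.1, in a fit to only GCB and BMPC and in the Dnmt3-deficient libraries alone (adjusted p = 0.0532 to 0.173). Ulk1, Ulk2 and Atg13 did not pass in any comparison of cell types. Atg13 ranged widely within a group, with 0.35, 0 and 21.4 FPKM in Dnmt3-deficient BMPC.

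The class III PI3-kinase complex, which makes the lipid PI3P at the site of assembly, had 5 of its 6 genes lower in BMPC than nB, beside 39.3% of all tested genes. The 5 were Becn1, Pik3c3, Pik3r4, Uvrag and Ambra1, and only Atg14 did not pass. Becn1, the regulatory subunit Beclin 1 (chr11:101147266-101163600 on mm9), ran from 25.9 to 48.5 FPKM in nB, with GCB at 44.3 to 64.0 and BMPC at 4.93 to 24.6, with medians of 40.2, 52.8 and 21.0. All BMPC libraries lay below all nB and all GCB libraries. Its change was -1.19 ± 0.35 against nB (adjusted p = 0.00856) and -1.72 ± 0.35 against GCB (adjusted p = 0.000718). Against nB the change fell below the minimum without Dnmt3-deficient BMPC replicate 1 or Dnmt3-sufficient BMPC replicate 2 (adjusted p = 0.0218 and 0.0156), and it was lost in either genotype alone (adjusted p = 0.0679 and 0.0849).

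Pik3r4, the VPS15 kinase that anchors the complex, had a median of 8.87 FPKM in nB, 3.27 in GCB and 0 in BMPC, with ranges of 4.003 to 13.7, 2.205 to 5.08 and 0 to 2.25. It was at 3 reads or fewer in 4 of the 6 BMPC libraries. The change from nB to BMPC was -2.82 ± 0.37 (adjusted p = 8.92e-06). Ambra1, a scaffold that links Beclin 1 to the complex, ran from 4.98 to 15.9 FPKM in nB and 4.36 to 9.14 in GCB, and from 0 to 2.13 in BMPC. Its BMPC libraries lay below all others, with changes of -2.58 ± 0.37 against nB (adjusted p = 2.31e-05) and -2.17 ± 0.37 against GCB (adjusted p = 0.000156). Pik3c3, the lipid kinase VPS34, fell from 37.6 ± 11.4 FPKM (SD, n = 6) in nB to 15.2 ± 16.5 in BMPC, where the libraries ranged from 0 to 38.1 and overlapped with nB (adjusted p = 0.0155). That call was lost in a fit to only nB and BMPC and in either genotype alone (adjusted p = 0.0525 to 0.189). Uvrag, which replaces ATG14 in a second form of the complex, passed with overlap (adjusted p = 0.0310), and leaving out any of 7 of the 18 libraries ended the call (adjusted p = 0.0540 to 0.0803), as did 5 other alternatives.

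Wipi1 (chr11:109434645-109473281 on mm9), one of the proteins that bind PI3P, was nearly absent from nB and GCB. It was listed at 0 in 5 of 6 nB libraries and in 5 of 6 GCB libraries, with highest values of 0.25 and 0.46 FPKM. In BMPC, Dnmt3-sufficient replicates had 1.385, 0.80 and 8.20 FPKM and Dnmt3-deficient replicates 4.97, 19.96 and 3.58. All 6 BMPC libraries lay above all 12 others, on 9 to 88 reads. The change was 2.36 ± 0.40 against nB (adjusted p = 0.000115) and 2.32 ± 0.40 against GCB (adjusted p = 0.000165). Its relative Wipi2, which recruits the conjugation machinery, had a mean of 13.1 FPKM in nB and 6.79 in BMPC with overlap (adjusted p = 0.0481), a call that was lost without any of 14 of the 18 libraries (adjusted p = 0.0565 to 0.126) and with 9 of 11 other alternatives. Atg9a, the membrane protein that supplies lipid to the vesicle, did not pass in any of these comparisons.

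Of the 7 conjugation genes, 4 fell from nB to BMPC, beside 39.3% of all tested genes. Atg16l2, a paralog of the conjugation scaffold Atg16l1, ran from 46.9 to 80.3 FPKM in nB, with GCB at 14.53 to 34.6 and BMPC at 0 to 22.7, with medians of 63.5, 29.8 and 2.44. All nB libraries lay above all others, while GCB and BMPC overlapped. The changes were -3.99 ± 0.71 from nB to BMPC (adjusted p = 0.000184) and -2.76 ± 0.71 from GCB to BMPC (adjusted p = 0.00448). The second was lost in either genotype alone (adjusted p = 0.0779 and 0.0510). From nB to GCB its change of -1.24 ± 0.71 did not pass, with an SE that included the spread of the BMPC libraries. Atg7, the E1 enzyme that activates ATG8 and ATG12, ran from 5.88 to 17.95 FPKM in nB, with GCB at 9.55 to 16.8 and BMPC at 0 to 8.09. BMPC lay below all GCB libraries and overlapped with nB. The change was -2.27 ± 0.35 against nB (adjusted p = 4.72e-05) and -2.46 ± 0.35 against GCB (adjusted p = 2.60e-05). Within the Dnmt3-deficient libraries alone the change from nB was -0.81 (adjusted p = 0.232) and the call against GCB was lost as well (adjusted p = 0.0674), while both held within the Dnmt3-sufficient ones. The interaction of genotype with that change is given below.

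Atg12, the ubiquitin-like protein joined to ATG5, and Atg16l1 also fell from nB to BMPC, both with overlap (adjusted p = 0.0293 and 0.00875). The Atg16l1 call was lost in the Dnmt3-sufficient libraries alone (adjusted p = 0.121), and the Atg12 call without any of 7 of the 18 libraries (adjusted p = 0.0503 to 0.0789) and in 3 other alternatives. Against GCB, Atg12 fell (adjusted p = 0.0264), and that call was lost without any of 5 libraries (adjusted p = 0.0511 to 0.0678) and in 3 other alternatives. Atg3, the E2 enzyme for ATG8, Atg5, the partner of ATG12, and Atg10, the E2 enzyme for ATG12, did not pass between cell types. Atg5 was at 0.11 FPKM in 1 Dnmt3-sufficient BMPC library and at 107 in 1 Dnmt3-deficient library.

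The ATG4 proteases cut ATG8 proteins before and after conjugation. Atg4b, which is taken to be the main one for LC3, had medians of 32.9, 31.1 and 23.3 FPKM in nB, GCB and BMPC and did not pass in any comparison of cell types. Atg4a passed in BMPC against GCB, with means of 15.7 and 37.8 FPKM (adjusted p = 0.0173), and Atg4d in BMPC against nB, with means of 4.93 and 14.2 (adjusted p = 0.00941), both with overlapping libraries. The call of Atg4a was lost in a fit to only GCB and BMPC and in either genotype alone (adjusted p = 0.0638 to 0.150), and that of Atg4d in the Dnmt3-sufficient libraries alone (adjusted p = 0.184). Atg4c was low everywhere and at most 5.37 FPKM.

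Of the 5 genes of the ATG8 family, Map1lc3b rose in BMPC and the other 4 did not pass between cell types. Map1lc3b (chr8:124114368-124121947 on mm9) encodes LC3B, the protein commonly used to mark autophagosomes. It ran from 245 to 328 FPKM in nB, with GCB at 202 to 273 and BMPC at 559 to 790. The BMPC libraries lay above all 12 others, and the mean of 728 ± 88.0 FPKM (SD, n = 6) was 2.49-fold the mean of nB and 2.94-fold that of GCB. The changes were 1.31 ± 0.11 against nB (adjusted p = 3.59e-08) and 1.55 ± 0.11 against GCB (adjusted p = 6.15e-09), and the call held in each of the alternatives of both comparisons. Gabarapl2, also called GATE-16, ran from 148 to 206 FPKM in nB, with GCB at 133 to 175 and BMPC at 185 to 341. Its BMPC range overlapped with nB and lay above GCB, and the changes of 0.69 ± 0.16 (adjusted p = 0.00153) and 0.77 ± 0.16 (adjusted p = 0.000742) were below the minimum change.

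Gabarap had a change of 0.03 ± 0.12 between nB and BMPC (adjusted p = 0.848), with 217 to 278 FPKM in nB and 216 to 297 in BMPC. Map1lc3a, the gene of LC3A, was above 0 in 1 of 6 BMPC libraries, at 11.3 FPKM. It passed as lower in BMPC than nB only when that library, Dnmt3-sufficient BMPC replicate 1, was left out (adjusted p = 0.0245) or when the fit held the Dnmt3-deficient libraries alone (adjusted p = 0.0332). Against GCB, Map1lc3a passed only in the Dnmt3-deficient libraries alone (adjusted p = 0.0384). Gabarapl1 had a change of 0.35 ± 0.49 against nB (adjusted p = 0.567) and of 0.81 ± 0.49 against GCB (adjusted p = 0.184). The latter passed in the Dnmt3-sufficient libraries alone (adjusted p = 0.0447), and over the alternatives it ran from -0.78 to 2.41.

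Cargo receptors bind both the material to be degraded and the ATG8 proteins. Sqstm1, which encodes p62, was at 39.1 to 67.8 FPKM in nB, with GCB at 24.0 to 51.7 and BMPC at 1.48 to 76.7 and did not pass. Nbr1, a receptor related to p62, did not pass either. Optn, the receptor optineurin (chr2:4941688-4985097 on mm9), was the 1 gene of the 37 that rose from nB to GCB. It was at 8.08 to 12.7 FPKM in the 6 GCB libraries and at 0.04 to 1.46 in the 6 nB libraries, with no overlap, and its change was 2.78 ± 0.55 (adjusted p = 0.000964). The mean in GCB was 14.02-fold that in nB. The call was lost in the Dnmt3-sufficient libraries alone (adjusted p = 0.0994). In BMPC, Optn was at 14.3 FPKM in 1 Dnmt3-sufficient library, above every GCB library, and at 3 reads or fewer in the other 5 libraries, and it passed as lower than in GCB with a change of -2.76 ± 0.55 (adjusted p = 0.000584), a call lost in the Dnmt3-sufficient libraries alone (adjusted p = 0.122).

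Tfeb encodes the transcription factor that activates autophagy and lysosome genes when nutrients are short. The Dnmt3-sufficient nB libraries had 11.8, 10.8 and 9.86 FPKM and the Dnmt3-deficient ones 13.6, 9.82 and 9.67, and the GCB libraries had 6.86 to 19.3 with a median of 10.4. In BMPC it was listed at 0 in all 6 libraries. With each BMPC library set to a floor of 3 reads, the level in nB was at least 23.5-fold and that in GCB at least 24.6-fold higher. The changes of -3.57 ± 0.29 against nB (adjusted p = 3.70e-08) and -3.56 ± 0.29 against GCB (adjusted p = 4.93e-08) passed in every alternative. Among the 3564 tested genes with a median of 5 to 20 FPKM in nB, 85 genes (2.38%) were listed at 0 in all 6 BMPC libraries, and 12 in all 6 GCB libraries. Tfe3, a relative of TFEB, ran from 3.10 to 10.7 FPKM in nB and 0 to 11.1 in BMPC with overlap. Its change of -1.29 ± 0.53 (adjusted p = 0.0491) was lost without any of 12 of the 18 libraries (adjusted p = 0.0564 to 0.134) and with 7 of 11 other alternatives. Against GCB, the change of Tfe3 in BMPC was -0.25 ± 0.53 (adjusted p = 0.725).

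LAMP1 and LAMP2 are the abundant membrane proteins of the lysosome, and LAMP2 is needed for the late steps of autophagy. Lamp2 (chrX:35754534-35809631 on mm9) ran from 14.4 to 19.4 FPKM in nB, with GCB at 9.31 to 17.8 and BMPC at 22.7 to 71.9. Every BMPC library lay above every other library. The mean in BMPC was 2.70-fold that in nB and 3.57-fold that in GCB, with changes of 1.28 ± 0.25 (adjusted p = 0.000450) and 1.68 ± 0.25 (adjusted p = 4.53e-05). In the Dnmt3-sufficient libraries alone the change from nB was 0.96 (adjusted p = 0.0447), just below the minimum. Lamp1, whose promoter holds 4 CACGTG motifs, ran from 5.38 to 35.4 FPKM in nB, with GCB at 5.86 to 21.6 and BMPC at 4.58 to 59.7. These ranges overlapped and Lamp1 did not pass.

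**Figure D3:**
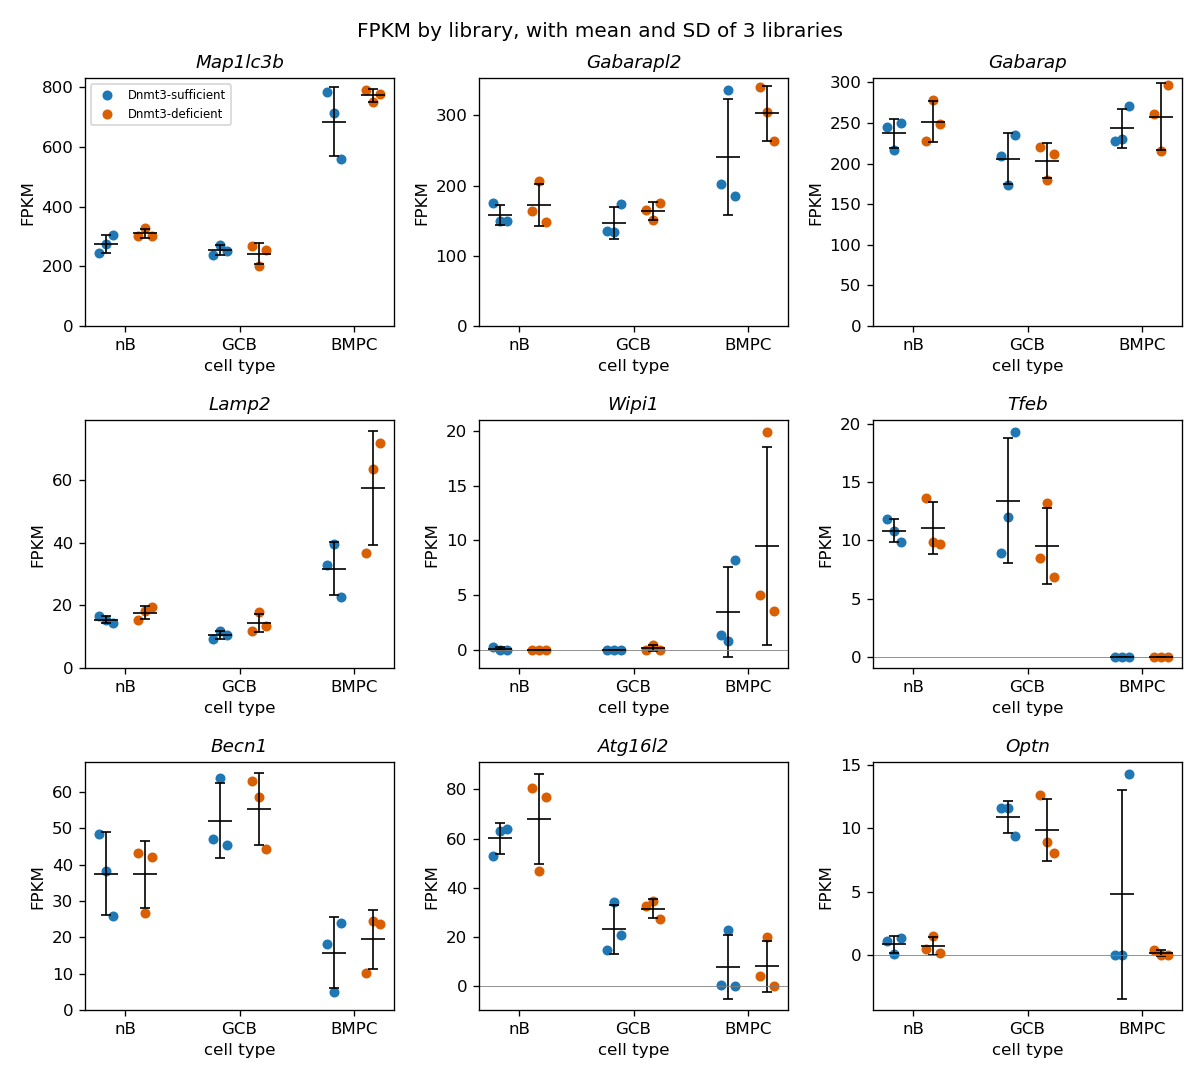
FPKM of 9 autophagy genes in each library (points), by cell type and genotype, with the mean and SD of 3 libraries (black). Map1lc3b, Lamp2 and Wipi1 lie above all other libraries in BMPC, Tfeb is at 0 there, Becn1 lies below nB and GCB, Atg16l2 lies below nB, and Optn is high in GCB.

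Between nB and GCB, 1 of the 37 genes rose (Optn) and 3 fell, beside 9.47% of all tested genes that rose and 12.0% that fell. The median change was -0.38 for the 37 genes and -0.13 for all tested genes. The 3 that fell were Pik3r4 (-1.04, adjusted p = 0.0464), Atg16l1 (-1.14, adjusted p = 0.0428) and Atg4c (-1.41, adjusted p = 0.0345). In all 3 the libraries of nB and GCB overlapped, so that 1 of the 37 genes rose and 0 fell with no overlap, beside 8.25% and 9.21% of all tested genes. Atg4c was at 0 in 4 of 6 GCB libraries. Atg101 was at 74.9 to 114 FPKM in GCB, above all nB libraries at 21.9 to 61.1, and did not pass (change 1.08 ± 0.75, adjusted p = 0.322). That SE came from all 18 libraries, BMPC included. The SD of Atg101 was 3.46 on the log2(FPKM + 1) scale in Dnmt3-deficient BMPC, the widest of the 37 genes there. Leaving out 1 library ended the calls of Pik3r4, Atg16l1 and Atg4c in 10, 11 and 9 of 18 cases (adjusted p = 0.0668 to 0.121, 0.0566 to 0.0925 and 0.0505 to 0.0981).

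The second question was whether the genotypes differ within a cell type. In nB and in GCB, 0 of the 37 genes passed, beside 0.0521% and 0.0% of all tested genes, 0 had an unadjusted p under 0.05 in limma (2.71% and 1.08% of all tested genes) and 0 passed with voom on the recovered reads. The spread of a gene was estimated over all 18 libraries, so the more variable BMPC libraries entered these tests as well. Such counts of 0 therefore do not show that the genotypes were alike in nB and GCB. The 2 genotypes did not overlap for 2 of the 37 genes in nB (8.84% of all tested genes) and for 5 in GCB (10.6%), none of which passed. In GCB these 5 were Uvrag, Atg7, Atg16l1, Map1lc3a and Lamp2, all higher in Dnmt3-deficient libraries. Lamp2, for instance, was at 9.31, 11.9 and 10.5 FPKM in Dnmt3-sufficient and at 12.0, 17.8 and 13.4 in Dnmt3-deficient GCB.

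In BMPC, 3 of the 37 genes rose and 1 fell in Dnmt3-deficient libraries, beside 1.34% of all tested genes that rose and 2.65% that fell, and 10 of the 37 had an unadjusted p under 0.05 in limma (20.3% of all tested genes). The genotypes did not overlap for these 4 genes, beside 10.3% of all tested genes. Ulk1, the kinase that starts autophagy, had 0.17, 0 and 0.11 FPKM in Dnmt3-sufficient BMPC, at most 2 reads each, and 6.69, 2.69 and 10.1 in Dnmt3-deficient BMPC. With the Dnmt3-sufficient libraries at a floor of 3 reads, Ulk1 was at least 34.0-fold higher in Dnmt3-deficient BMPC, with a change of 2.64 ± 0.52 (adjusted p = 0.00776). Atg7 was at 0, 0.23 and 0 FPKM and at 2.90, 7.85 and 8.09, at least 21.4-fold higher with a change of 2.66 ± 0.49 (adjusted p = 0.00544). In nB and GCB both genes were above 1 FPKM in every library of both genotypes, so the Dnmt3-sufficient BMPC libraries were the low ones.

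Atg3 was at 9.52, 6.76 and 1.95 FPKM in Dnmt3-sufficient and at 31.9, 35.4 and 16.0 in Dnmt3-deficient BMPC, a 4.57-fold difference of means (change 2.13 ± 0.56, adjusted p = 0.0404). Gabarapl1 was at 4.62, 2.82 and 26.7 FPKM in Dnmt3-sufficient and at 2.07, 0 and 0 in Dnmt3-deficient BMPC (change -2.53 ± 0.70, adjusted p = 0.0485). The mean of the Dnmt3-sufficient group rested mainly on 1 library. Neither call was stable. That of Atg3 was lost without any of 12 of the 18 libraries (adjusted p = 0.0532 to 0.107), and that of Gabarapl1 without any of 15 (adjusted p = 0.0532 to 0.135).

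All 4 calls ended in a fit to BMPC alone (adjusted p = 0.709 to 0.779) and with a quality weight per library (adjusted p = 0.454 to 0.738), the first of which does not share its estimate of the spread with the nB and GCB libraries. The test of the difference itself, the interaction of genotype with cell type, passed for 0 of the 37 genes for BMPC against nB and against GCB, beside 0.555% and 0.425% of all tested genes. For GCB against nB it also passed for 0 of the 37 (0.0% of all tested genes). At an unadjusted p under 0.05 in limma the counts were 6, 5 and 0 of the 37 in that order, beside 11.9%, 9.43% and 1.77% of all tested genes. The values were 2.94 ± 0.73 for Ulk1 (adjusted p = 0.0829) and 2.91 ± 0.70 for Atg7 (adjusted p = 0.0731) for BMPC against nB. With a pseudocount of 0.1 and with voom, 2 of the 37 passed that interaction. The erythroid markers also differed between the genotypes in BMPC, with sums of 1163 to 2229 FPKM in Dnmt3-sufficient and 160 to 814 in Dnmt3-deficient libraries, and the plasma cell markers, mostly Jchain, with 18920 to 29490 and 33950 to 51500. Their part in the result was not tested. Map1lc3b, Gabarap, Gabarapl2, Wipi1 and Lamp2 did not pass between genotypes in BMPC.

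**Figure D4:**
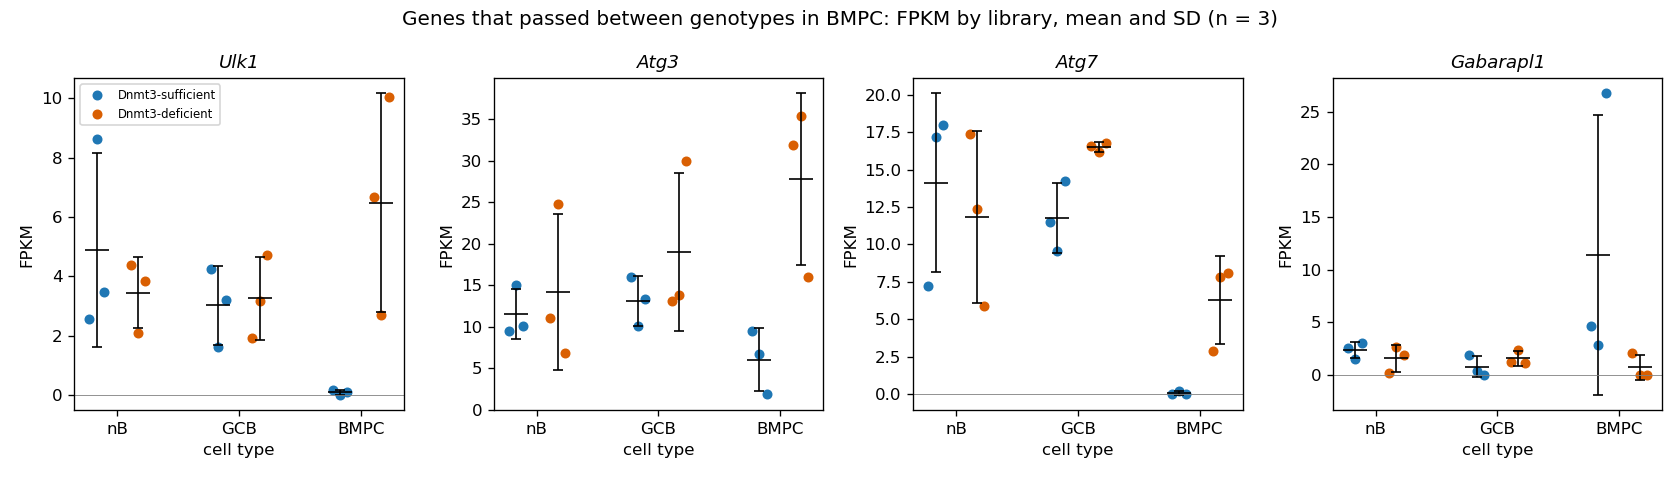
FPKM of the 4 genes that passed between genotypes in BMPC, in each library (points), by cell type and genotype, with the mean and SD of 3 libraries (black). Ulk1 and Atg7 lie near 0 only in Dnmt3-sufficient BMPC, and in Gabarapl1 a single library at 26.7 FPKM sets the mean.

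Other genes of the pathway were taken from lists by role, 97 genes of which 92 were tested. From nB to GCB, 2 rose and 27 fell (2.17% and 29.3% of the 92), beside 9.47% and 12.0% of all tested genes. The fall was seen most among the lysosomal hydrolases, the enzymes that degrade what autophagy delivers, of which 12 of 16 fell (median change -1.45, beside -0.13 for all tested genes). Ctss, the cathepsin that also trims the invariant chain in antigen presentation, ran from 834 to 1048 FPKM in nB and from 254 to 275 in GCB, a change of -1.87 ± 0.08 (adjusted p = 6.94e-11). Ctsl, another cathepsin, was at 5.27 to 32.0 FPKM in nB and at 0 to 2.01 in GCB (adjusted p = 0.00117). Psap, the precursor of the saposins, was at 105 to 403 FPKM and at 10.1 to 89.7 (adjusted p = 5.00e-05). None of these 3 overlapped between nB and GCB. Sesn1, an inhibitor of mTORC1, had the largest fall, from 48.9 to 90.3 FPKM in nB to 1.98 to 8.62 in GCB (adjusted p = 0.000466). The 2 that rose were Fundc1, a receptor for mitochondria, at 23.6 to 41 and 72.1 to 118 FPKM (adjusted p = 0.00724), and Stbd1, a receptor for glycogen. Stbd1 was listed at 0 in all 6 nB libraries, and its mean was at least 11-fold higher in GCB (adjusted p = 0.0170). It was low and uneven there, at 1.57, 4.91 and 0.32 FPKM in Dnmt3-sufficient and 0.054, 4.36 and 0.56 in Dnmt3-deficient libraries.

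From GCB to BMPC, 17 of the 92 rose and 25 fell (18.5% and 27.2%), beside 7.72% and 33.7% of all tested genes. Among the hydrolases 6 of 16 rose and 2 fell, so the 2 comparisons that involve GCB gave opposite counts for that list, and GCB libraries enter both. The median change of the 16 was -0.05, beside -0.66 for all tested genes. In BMPC against nB, 1 of the 16 rose and 9 fell, beside 9.43% and 39.3% of all tested genes. Their median change there was -1.52, beside -0.79 for all tested genes. Ctss reached 869 to 1853 FPKM in BMPC (change 2.32 ± 0.08, adjusted p = 1.83e-12) and Ctsb 147 to 406, beside 40.4 to 62.9 in GCB (adjusted p = 1.27e-06). Npc2, which carries cholesterol out of the lysosome, was at 26.9 to 62.5 FPKM in nB, with GCB at 8.47 to 28.9 and BMPC at 94.5 to 147. It lay above all other libraries in BMPC, with changes of 1.46 ± 0.27 against nB (adjusted p = 0.000299) and 2.82 ± 0.27 against GCB (adjusted p = 4.31e-07). Mlst8, a subunit of mTORC1, was lower in BMPC, at 0 to 4.95 FPKM, than in GCB, at 6.72 to 13.99 (adjusted p = 0.000653).

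The genes for fusion with the lysosome were lower in BMPC than nB in 9 of 14 cases, with a median change of -1.73 beside -0.79 for all tested genes, and none rose. All tested genes fell in 39.3% of cases. Over the 92 genes 3 rose and 36 fell (3.26% and 39.1%), beside 9.43% and 39.3% of all tested genes, so the share that fell was near that of all genes. Snap29, a SNARE that joins autophagosome and lysosome, ran from 26.2 to 46.4 FPKM in nB, with GCB at 11.9 to 31.8 and BMPC at 0 to 1.99, a change of -4.49 ± 0.30 (adjusted p = 4.33e-09). Vps11, a core subunit of the HOPS tether, was at 38.0 to 67.8 FPKM in nB and at 0 to 17.4 in BMPC (adjusted p = 3.67e-05). Plekhm1, an adaptor between HOPS and ATG8 proteins, was at 13.7 to 34.0 and 0 to 9.93 (adjusted p = 1.11e-05). All 3 lay below every nB library in BMPC, and each was at 3 reads or fewer in 3 of the 6 BMPC libraries.

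Between genotypes, none of the 92 passed in nB or GCB, where 2 and 0 had an unadjusted p under 0.05 in limma and none passed with voom. These tests, too, used a spread that included the BMPC libraries. In BMPC, 3 rose in Dnmt3-deficient libraries and none fell, beside 1.34% and 2.65% of all tested genes. Zfyve1, which marks the membrane site where autophagosomes form, was listed at 0 in all 3 Dnmt3-sufficient libraries and was at least 13.97-fold higher in Dnmt3-deficient ones (adjusted p = 0.0470). Vps18, a HOPS subunit, was at least 18.03-fold higher (adjusted p = 0.0423). None of the 3 passed in a fit to BMPC alone.

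**Figure D5:**
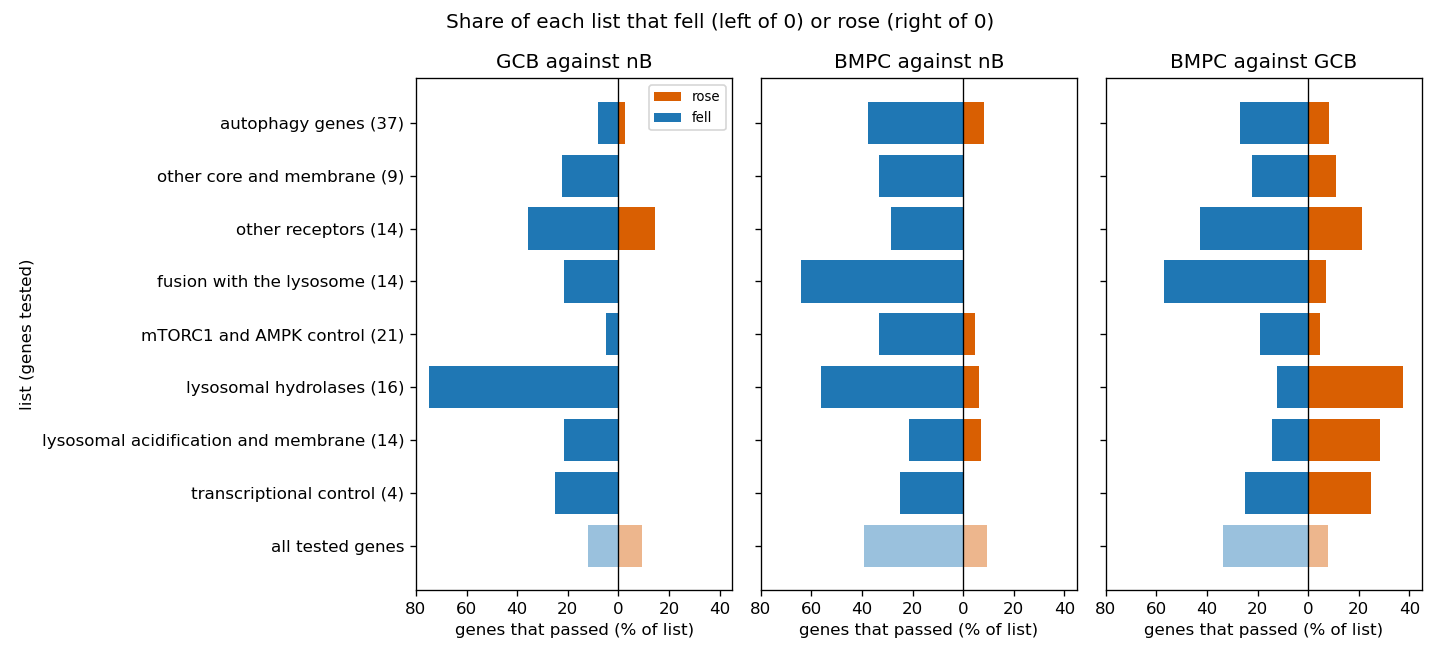
Share of each list of genes that fell (blue, to the left of 0) or rose (orange, to the right) between cell types, in percent of the genes tested, with the number tested in brackets and all tested genes in the last row. The autophagy genes lie near the row of all genes in BMPC against nB. The lysosomal hydrolases extend to the left in GCB against nB and in BMPC against nB, and to the right in BMPC against GCB.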

How the data were processed

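RNA-seq was analysed in 18 libraries of sorted mouse B lineage cells, 3 for each of 6 groups taken from the labels. The authors made cDNA with 13 and Nextera libraries with 12 cycles of PCR, mapped 50 bp read pairs to mm9 with TopHat, kept single hits and counted reads over UCSC KnownGenes exons with summarizeOverlaps. Whether strand was used is not stated, so values of genes that overlap others, or that have close copies elsewhere in the genome, are uncertain. The submitters' notes name Picard, R 3.2.2 and edgeR 3.12.1. The FPKM values deposited by the authors are the values used here. Columns with the authors' own fold changes and p-values were not used, and 0 columns of values belonged to no sample.

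FPKM times exon length gave whole reads for all values (tolerance 0.01), so depth was recovered. Depth was 1355231 to 3803197 reads in BMPC and 6692516 or more in the other libraries. The floor of 3 reads covers counting error only. The test was limma 3.58.1 (R 4.3.3) on log2(FPKM + 1), two-sided, with 6 group means, an intensity trend and Benjamini-Hochberg adjustment over the 11522 genes that reached more than 1 FPKM in 2 or more libraries. The spread of a gene was estimated over all 18 libraries and served every comparison. Passing took a log2 change of 1 or more with an adjusted p of at most 0.05, on a scale that understates changes of low genes. Cell types were compared on the mean of both genotypes. p-values measure only the spread between these samples. The code was tested on simulated data.

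The members and lists were chosen with earlier results of these data known. Named genes were the 5 ATG8 genes, Tfeb, Tfe3, up to 5 rises and 5 falls per comparison of cell types among genes that passed with no overlap, every one of the 37 that passed between genotypes, and, by the same rule, up to 3 rises and 3 falls per comparison of cell types among other pathway genes. The rest of the 37 are named to account for all of them. Vamp8, Zfyve1 and Vps18 were named after their values were seen. The alternatives changed 1 choice each. They were fits to only the groups compared, to 1 genotype and without each library, sex as a covariate, a replicate block in GCB, arrayWeights and voom on recovered reads. Others were a smaller pseudocount (0.1), a stricter filter (3 FPKM in 3 libraries) or none, scaling by median of ratios or without Jchain, and other thresholds (0.01, or any size of change). Gene positions are from GENCODE vM1 on mm9, and promoters from RefSeq on GRCm38.p6. The values of 1 other pathway gene that passed between genotypes in BMPC are not reported here. Figures were drawn with matplotlib 3.10.9.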

Additional observations from a re-analysis of the deposited data

How the results depend on the processing

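Of 2099 changes of single genes recomputed under an alternative, 1909 kept their side of the threshold, 183 no longer passed, 7 newly passed and 0 passed in the opposite direction. Changes that did not pass could switch sign, as that of Gabarapl1 in BMPC against nB did (-0.66 to 1.36). The numbers of genes that passed moved more, and the cause was not tested. Of the 37 genes, 4 passed between GCB and nB, and this became 2 with a pseudocount of 0.1, 1 with no filter, 9 in a fit to only the groups compared, 10 with a quality weight per library, 0 in Dnmt3-sufficient and 1 in Dnmt3-deficient libraries alone, and 1 at an adjusted p of 0.01. Leaving out 1 library gave 1 to 5, and 1 or 2 without any GCB library, Dnmt3-sufficient nB replicate 1 or 2 or Dnmt3-deficient nB replicate 2 or 3. For BMPC against nB the 17 became 10 and 11 in Dnmt3-sufficient and Dnmt3-deficient libraries alone (13 to 18 without 1 library), and for BMPC against GCB the 13 became 12 to 16 without 1 library.

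Between genotypes in BMPC the 4 became 0 in a fit to BMPC alone and with quality weights, and 2 with voom and at an adjusted p of 0.01. Leaving out 1 library gave 2 to 7, with 7 without Dnmt3-deficient BMPC replicate 3 and 2 without Dnmt3-deficient BMPC replicate 2, any Dnmt3-sufficient nB or GCB library, Dnmt3-deficient nB replicate 1 or Dnmt3-deficient GCB replicate 1 or 2. The interactions of BMPC against nB and against GCB, 0 each, became 2 each with a pseudocount of 0.1 and with voom. Without 1 library the first gave 0 to 1, with 1 without Dnmt3-sufficient BMPC replicate 2 or any Dnmt3-deficient BMPC library.

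Of the other pathway genes, the 29 of GCB against nB became 11 and 13 in Dnmt3-sufficient and Dnmt3-deficient libraries alone and 19 at an adjusted p of 0.01 (23 to 30 without 1 library). The 39 of BMPC against nB became 24 in Dnmt3-deficient libraries alone (32 to 43), and the 42 of BMPC against GCB became 25 in Dnmt3-sufficient libraries alone (36 to 47). The 3 between genotypes in BMPC became 6 with a pseudocount of 0.1, 0 in a fit to BMPC alone and with quality weights, and 1 at an adjusted p of 0.01. Leaving out 1 library gave 1 to 7, with 7 without Dnmt3-sufficient or Dnmt3-deficient BMPC replicate 1, and 1 without Dnmt3-sufficient nB replicate 2, any Dnmt3-deficient nB or Dnmt3-sufficient GCB library or Dnmt3-deficient GCB replicate 1 or 3.

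The genotypes share replicate numbers in GCB, but deviations of same-numbered samples had correlations of 0, -0.017 and 0.026, so the numbers were not taken to pair the samples, and with the replicate block 0 of the 37 genes passed. Depth limits BMPC most, where 7 to 14 of the 37 genes were at 3 reads or fewer in a library.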
